A study of Sus scrofa with 48 samples.

Results

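The myosin heavy chain genes were followed in longissimus muscle of 48 pigs, with 1 array per pig. The array carried 39 probes for 9 of the 10 genes listed (MYH1, MYH2, MYH4, MYH7, MYH3, MYH7B, MYH9, MYH10 and MYH11), 9 of the 9001 gene symbols tested, found among 60305 probes by the gene name or the symbol given in brackets in the probe description. No probe was found for MYH8, the perinatal myosin. All 39 probes gave a signal well above background on at least 12 arrays and were kept. The pigs came from 2 purebred Large White lines selected in opposite directions for residual feed intake (RFI), the part of feed intake that growth and maintenance do not account for, so that low-RFI pigs eat less than predicted. Each line was fed without restriction either a diet rich in fat and fibre (HF) or a diet low in both (LF), which gave 4 groups of 12 pigs: low RFI on LF, low RFI on HF, high RFI on LF and high RFI on HF. Each line is a single selected population, and fat and fibre were raised together, so that their shares in a diet difference cannot be told apart. Age and sex are not stated in the sample labels.

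Myosin heavy chains are the motor subunits of the thick filament, and the isoform that a muscle fibre carries sets its contraction speed. MYH7 is the slow isoform of oxidative type I fibres, MYH2 the isoform of fast oxidative IIA fibres, MYH1 that of IIX fibres and MYH4 that of the fastest, glycolytic IIB fibres, which are abundant in pig longissimus. MYH3 and MYH8 are used in developing and regenerating fibres, MYH7B is an ancient relative of MYH7, MYH9 and MYH10 drive non-muscle cells, and MYH11 is the myosin of smooth muscle. In the current RefSeq gene table of the pig (assembly Sscrofa11.1), MYH4, MYH1 and MYH2 lie next to each other on chromosome 12, MYH10 lies elsewhere on chromosome 12, MYH7 on chromosome 7, MYH9 on chromosome 5, MYH11 on chromosome 3 and MYH7B on chromosome 17.

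Fast myosins share long stretches of sequence, and how well their probes can tell them apart bears on every value given here. The 39 probes fell on 30 separate target sites when probes sharing a run of at least 20 bases were counted as 1 site. The 10 probes named MYH4 covered 6 sites, the 8 MYH1 probes 6, the 5 MYH2 probes 5 and the 9 MYH7 probes 7. The MYH4 probes with the clearest line differences are shown first. Capitals mark the longest run that a probe has in common with another of the 39 where that run reached 14 bases. O14581 and A_72_P675825 were identical over all 60 bases, so O14581 stands for both, and the following 3 probes overlap one another.
MYH4 O14581: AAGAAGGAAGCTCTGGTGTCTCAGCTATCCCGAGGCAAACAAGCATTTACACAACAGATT
MYH4 A_72_P687460: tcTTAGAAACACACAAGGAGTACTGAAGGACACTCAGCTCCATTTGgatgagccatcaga
MYH4 A_72_P599573: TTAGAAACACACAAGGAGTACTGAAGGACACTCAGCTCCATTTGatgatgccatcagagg
MYH4 A_72_P615705: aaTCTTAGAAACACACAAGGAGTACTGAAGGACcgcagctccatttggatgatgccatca
MYH4 A_72_P441939: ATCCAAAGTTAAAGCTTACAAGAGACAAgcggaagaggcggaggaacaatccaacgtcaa

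The MYH2 and MYH1 probes are shown because the MYH2 probes disagreed with each other in the comparisons below. A_72_P694038 and CUST_404_PI427286967 varied widely between pigs, whereas A_72_P600848, which shares 19 bases with a MYH1 probe, did not. A_72_P694038 shared 14 bases with the MYH4 probe A_72_P441939.
MYH2 A_72_P694038: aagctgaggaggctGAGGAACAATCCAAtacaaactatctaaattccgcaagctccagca
MYH2 CUST_404_PI427286967: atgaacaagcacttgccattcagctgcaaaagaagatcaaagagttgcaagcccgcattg
MYH2 A_72_P600848: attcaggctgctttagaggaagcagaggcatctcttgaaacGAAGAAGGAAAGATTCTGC
MYH1 A_72_P590054: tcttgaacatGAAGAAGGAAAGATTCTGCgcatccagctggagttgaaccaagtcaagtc

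The remaining sequences come from the slow, developmental and smooth muscle genes, and the probes shown had no shared run of 14 bases. The MYH3 probe is given for its bases 1 to 30.
MYH7 A_72_P614843: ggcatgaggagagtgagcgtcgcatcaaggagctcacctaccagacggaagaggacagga
MYH7 A_72_P529715: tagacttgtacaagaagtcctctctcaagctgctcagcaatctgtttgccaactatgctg
MYH3 O9265: tttcatggttcctgacccttcatttccatg
MYH11 O1428: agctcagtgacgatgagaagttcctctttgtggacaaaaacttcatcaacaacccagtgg
MYH7B O6672: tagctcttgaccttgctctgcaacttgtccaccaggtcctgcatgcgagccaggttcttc

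Not every name on the array was matched by the sequence under it. The probe A_72_P303294 is named MYH4, but it carries the accession of MYH2 and had 57 of its 57 overlapping bases in common with the MYH2 probe A_72_P440201. The MYH7B probe matched a MYH1 probe better as its reverse complement (27 of 40 bases) than as listed (14 of 39 bases), and 3 reading frames of the reverse complement were free of stop codons against 1 as listed. The transcript strand that this probe reports was not tested. In addition, 4 MYH1 probes and 1 MYH2 probe carried accessions of more than 1 of these genes.

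Levels are given as normalised log2 signals, that is, log2 of the scanner's processed signal minus the mean of that array over the 42125 probes tested, so that 0 is the array mean and a difference of 1 is a doubling. Levels of different probes cannot be set against each other. The fibre myosins were among the brightest spots of the array. Of the 39 probes, 18 were among the 425 tested probes with a mean log2 processed signal of 17 or more, and no spot was saturated. All probes were well above background on 48 arrays apart from those of MYH7B (45 arrays) and MYH11 (35 arrays). In whole muscle, fewer fibres of a type and less RNA per fibre cannot be told apart.

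Between the lines, MYH3 was higher and a set of MYH4 and MYH2 probes was slightly lower in high-RFI pigs, and MYH3 was the call that did not depend on how the arrays were scaled. At an adjusted p below 0.05 (limma, Benjamini-Hochberg over all 42125 probes), 8 of 39 probes were called, 7 with less and 1 with more signal in the high-RFI line. Of all probes tested, 16.4% were called, 6.57% higher and 9.85% lower, against 20.5% of the myosin probes. The median line difference of the myosin probes was -0.09 on the log2 scale, and that of all tested probes was -0.03. No probe separated the lines completely.

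MYH3, the embryonic isoform, showed the widest line difference of the family. Its level ran from 1.56 through a median of 3.37 to 4.70 in low-RFI pigs on LF and from 0.88 through 2.63 to 4.59 in low-RFI pigs on HF. In high-RFI pigs it ran from 1.29 through 4.83 to 6.44 on LF and from 0.43 through 3.73 to 6.12 on HF. The high-RFI pigs were mostly above the low-RFI pigs of the same diet, but each high-RFI group also held 1 pig far below its fellows, whose next lowest values were 3.62 on LF and 2.48 on HF. The line difference was 1.24 ± 0.34 (SE, 95% interval 0.56 to 1.92), a 2.37-fold higher signal in the high-RFI line, with an adjusted p of 0.00906 by limma. Of the 24 high-RFI pigs, 19 were above the mean of the low-RFI line, and the line difference was positive on 6 of 6 slides, at 1.18 on the first scan day and 1.31 on the second. Within each diet it had the same direction without passing the test (1.34 on LF, adjusted p = 0.124 by limma; 1.14 on HF, adjusted p = 0.130).

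The 10 probes named MYH4, the IIB isoform, each had a lower signal in the high-RFI line (-0.25 to -0.07), and 5 were called. After quantile normalization 7 of 10 were lower and none was called. Without A_72_P303294, which has the sequence of a MYH2 probe, 9 of 9 were lower, and 7 of 9 after quantile normalization. The 5 called probes represent 2 target sites. At O14581 the level ran from 8.93 through 9.11 to 9.32 in low-RFI pigs on LF and from 8.94 through 9.19 to 9.43 on HF, and in high-RFI pigs from 8.50 through 8.84 to 9.13 on LF and from 8.46 through 9.01 to 9.17 on HF. The lines overlapped, with 23 of 24 high-RFI pigs below the low-RFI mean. The difference was -0.25 ± 0.05 (SE, 95% interval -0.35 to -0.15), a 1.19-fold lower signal with an adjusted p of 0.000642 by limma, and it was negative on 6 of 6 slides. After quantile normalization it was -0.13, with an adjusted p of 0.0519 by limma.

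The identical probe A_72_P675825 ran from 8.99 through 9.20 to 9.40 in low-RFI pigs on LF, from 8.95 through 9.25 to 9.58 on HF, and in high-RFI pigs from 8.56 through 8.95 to 9.28 on LF and from 8.58 through 9.10 to 9.29 on HF. Its difference was -0.23 (adjusted p = 0.0028 by limma). At A_72_P687460, the pigs ran from 9.33 through 9.499 to 9.62 (low RFI, LF), from 9.24 through 9.47 to 9.79 (low RFI, HF), from 8.97 through 9.26 to 9.56 (high RFI, LF) and from 8.80 through 9.39 to 9.54 (high RFI, HF). The high-RFI pigs reached lower at both sites, and the upper parts of the ranges overlapped. A_72_P599573 had medians of 9.43, 9.45, 9.24 and 9.35 in the same order and A_72_P615705 of 9.41, 9.39, 9.19 and 9.34. These 3 overlapping probes A_72_P687460, A_72_P599573 and A_72_P615705 gave -0.16, -0.15 and -0.15 (adjusted p = 0.0198, 0.0168 and 0.0214). The brightest MYH4 probe, A_72_P441939, ran from 9.76 through 10.04 to 10.25 in low-RFI pigs on LF, from 9.93 through 10.11 to 10.38 on HF, and in high-RFI pigs from 9.82 through 10.02 to 10.18 on LF and from 9.58 through 10.03 to 10.16 on HF, with wide overlap. Its difference of -0.11 did not pass the test (adjusted p = 0.0830 by limma). The called and uncalled MYH4 probes thus lay at different sites of the transcript, and differences between sites were not tested.

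Of the 5 probes named MYH2, the IIA isoform, 2 were called lower in the high-RFI line, O14587 and A_72_P600848. Neither call remained after quantile normalization, where the differences were -0.01 and -0.03. A_72_P600848 is annotated to both MYH1 and MYH2. O14587 correlated at r = 0.91 with the MYH1 probe A_72_P635603 over pigs, group means removed. How far these 2 probes report MYH2 itself was not tested. O14587 ran from 9.38 through 9.60 to 9.80 in low-RFI pigs on LF, from 9.44 through 9.63 to 9.84 on HF, and in high-RFI pigs from 9.31 through 9.46 to 9.61 on LF and from 9.09 through 9.54 to 9.68 on HF. The ranges overlapped widely, although 21 of 24 high-RFI pigs were below the low-RFI mean. The difference was -0.12 ± 0.04 (SE), with an adjusted p of 0.0259 by limma. A_72_P600848 ran from 8.46 through 8.64 to 8.89 and from 8.40 through 8.74 to 8.95 in low-RFI pigs on LF and HF, and from 8.33 through 8.49 to 8.81 and from 8.36 through 8.55 to 8.70 in high-RFI pigs. It gave -0.15 ± 0.04 (SE), with an adjusted p of 0.0200 by limma. The other MYH2 probes differed by -0.27 to -0.02 between lines, with adjusted p-values from 0.438 to 0.952 by limma. Among them, A_72_P440201 and A_72_P694038, annotated to MYH2 alone, differed by -0.10 and -0.02.

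MYH1, the IIX isoform, had no called probe, but 3 of 8 were called lower in the high-RFI line with slide as a block (lowest adjusted p = 0.0266 by limma), 2 in the deposited table (0.0184) and 1 after normexp (0.0365). Of all probes, 12.5%, 11.1% and 7.09% were called lower under these settings. The MYH1 differences between lines ran from -0.11 to 0.05, with 7 of 8 probes lower in the high-RFI line, and after quantile normalization 1 of 8 was lower. The brightest probe, A_72_P635603, ran from 9.78 through 9.92 to 10.18 and from 9.76 through 9.94 to 10.24 in low-RFI pigs on LF and HF, and from 9.67 through 9.80 to 10.01 and from 9.48 through 9.88 to 10.04 in high-RFI pigs. The groups overlapped over most of their ranges, with a difference of -0.11 (95% interval -0.19 to -0.02, adjusted p = 0.0692 by limma).

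MYH7, the slow isoform, showed no called line difference at any of 9 probes. Its differences ran from -0.20 to 0.13, 5 positive and 4 negative, with adjusted p-values from 0.290 to 0.932 by limma. After quantile normalization 7 of 9 were positive and 1 probe, A_72_P223897, was called higher in the high-RFI line (0.18, adjusted p = 0.0392 by limma). The MYH7B probe ran from -3.48 to -2.74 and from -3.93 to -2.54 in low-RFI pigs on LF and HF (medians -3.07 and -3.38), and from -3.95 to -2.85 and from -3.88 to -2.31 in high-RFI pigs (medians -3.22 and -3.33). It differed by -0.07 between the lines (95% interval -0.29 to 0.16).

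The non-muscle and smooth muscle genes gave no called line difference either. The brighter MYH9 probe, A_72_P268574, differed by -0.10 (95% interval -0.20 to -0.00), with medians of 6.75 and 6.83 in low-RFI pigs on LF and HF and of 6.66 and 6.65 in high-RFI pigs. The MYH10 probe O12421 had medians of 3.15 and 3.04 in low-RFI pigs on LF and HF and of 3.18 and 3.27 in high-RFI pigs, all within a range of 2.52 to 4.04. The MYH10 probes differed by 0.05 and 0.03, with adjusted p-values of 0.737 and 0.856 by limma. MYH11, the dimmest probe of the set, ran from -5.93 to -2.23 over the 48 pigs, with group medians from -3.96 to -3.72, and differed by -0.17 (95% interval -0.51 to 0.17).

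**Figure D1:**
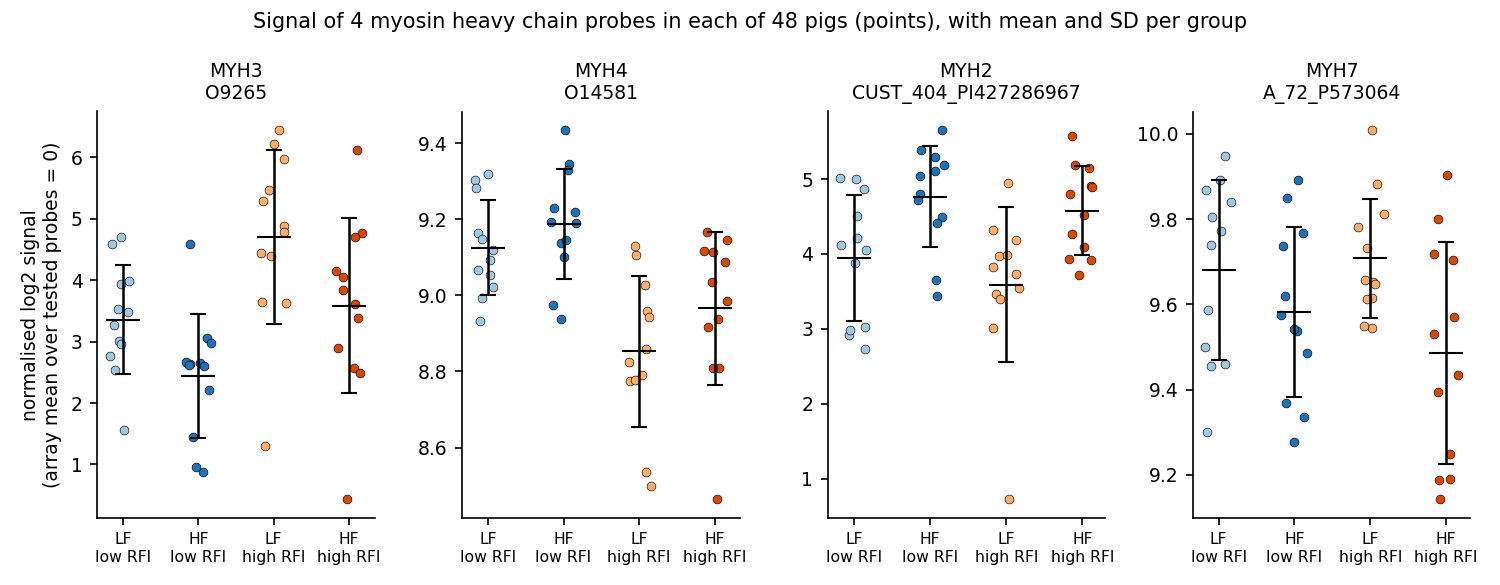
Normalised log2 signal (y axis, array mean over tested probes at 0) of the MYH3, MYH4, MYH2 and MYH7 probes O9265, O14581, CUST_404_PI427286967 and A_72_P573064 in each of 48 pigs, by line and diet group (12 points each), with the group mean and SD as bars. MYH3 spreads over 6 log2 units and is higher in most high-RFI pigs, MYH4 is lower in the high-RFI groups (after quantile normalization by -0.13 and no longer called), and the MYH2 probe sits higher on HF in both lines.

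Between the diets, no myosin heavy chain probe passed the test, but MYH2 and MYH7 leaned in opposite directions and MYH3 leaned with MYH7. Of 39 probes, 0 were called by limma, against 0.420% of all tested probes (177 of 42125), while 12 had an unadjusted p below 0.05, 4 higher and 8 lower on HF, against 13.1% of all tested probes (5.97% higher and 7.12% lower). The median diet difference was 0.01 for the myosin probes and 0.00 for all tested probes.

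The MYH2 probe CUST_404_PI427286967 came closest. On LF its level ran from 2.74 through 4.09 to 5.02 in low-RFI pigs and from 0.73 through 3.78 to 4.95 in high-RFI pigs. On HF it ran from 3.44 through 4.92 to 5.65 in low-RFI pigs and from 3.72 through 4.66 to 5.58 in high-RFI pigs. The HF pigs were the higher ones in both lines, and 21 of 24 lay above the LF mean, with overlap. The diet difference was 0.90 ± 0.23 (SE, 95% interval 0.45 to 1.36), 1.87-fold, positive on 6 of 6 slides, with an adjusted p of 0.0506 by limma. It was called under 5 of the alternative settings, with adjusted p-values from 0.0389 to 0.0458.

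The other probes that varied with it leaned the same way. A_72_P694038 was 0.42 ± 0.13 (SE) higher on HF, A_72_P440201 0.62 ± 0.19 and the MYH4-named A_72_P303294 0.63 ± 0.19, with adjusted p-values of 0.110, 0.126 and 0.112 by limma. Of 24 HF pigs, 20, 22 and 20 lay above the LF mean. In the same pigs the other MYH2 probes, O14587 and A_72_P600848, differed by 0.03 and 0.05, and the remaining 9 MYH4 probes by -0.00 to 0.09. The low end of these probes was set by 1 high-RFI pig on LF, which had the lowest level of all 48 at each of the 4 (0.73, 5.06, 5.12 and 6.15) and the highest MYH3 level of all, 6.44.

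MYH7 had a lower signal on HF at 9 of 9 probes, by -0.37 to -0.16, and 7 of them had an unadjusted p below 0.05, but the adjusted p-values ran from 0.220 to 0.529 by limma. In high-RFI pigs the differences were -0.47 to -0.22, with 7 of 9 at an unadjusted p below 0.05. In low-RFI pigs they were -0.26 to -0.06, with 0 of 9. The lowest unadjusted p of the line by diet interaction was 0.196 by limma. The direction over both lines was the same under quantile normalization, and 9 of 9 were negative on each scan day. The brightest probe, A_72_P573064, ran from 9.30 through 9.76 to 9.95 in low-RFI pigs on LF and from 9.28 through 9.56 to 9.89 on HF, and in high-RFI pigs from 9.54 through 9.65 to 10.01 on LF and from 9.14 through 9.48 to 9.90 on HF. The diets overlapped almost entirely, and 16 of 24 HF pigs were below the LF mean. Its difference was -0.16 (95% interval -0.28 to -0.04). Since the 9 probes measure 1 transcript in the same pigs, they do not count as 9 observations.

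MYH3 was 1.02 lower on HF on the log2 scale (difference -1.02 ± 0.34, SE, 95% interval -1.70 to -0.34), with an unadjusted p of 0.00425 and an adjusted p of 0.152 by limma. The difference was negative on 5 of 6 slides, and 18 of 24 HF pigs lay below the LF mean. MYH1 differed by -0.01 to 0.08 between diets, MYH7B by -0.04, MYH9 by -0.02 and 0.01, MYH10 by -0.14 at each probe and MYH11 by 0.12, none with an unadjusted p below 0.05.

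**Figure D2:**
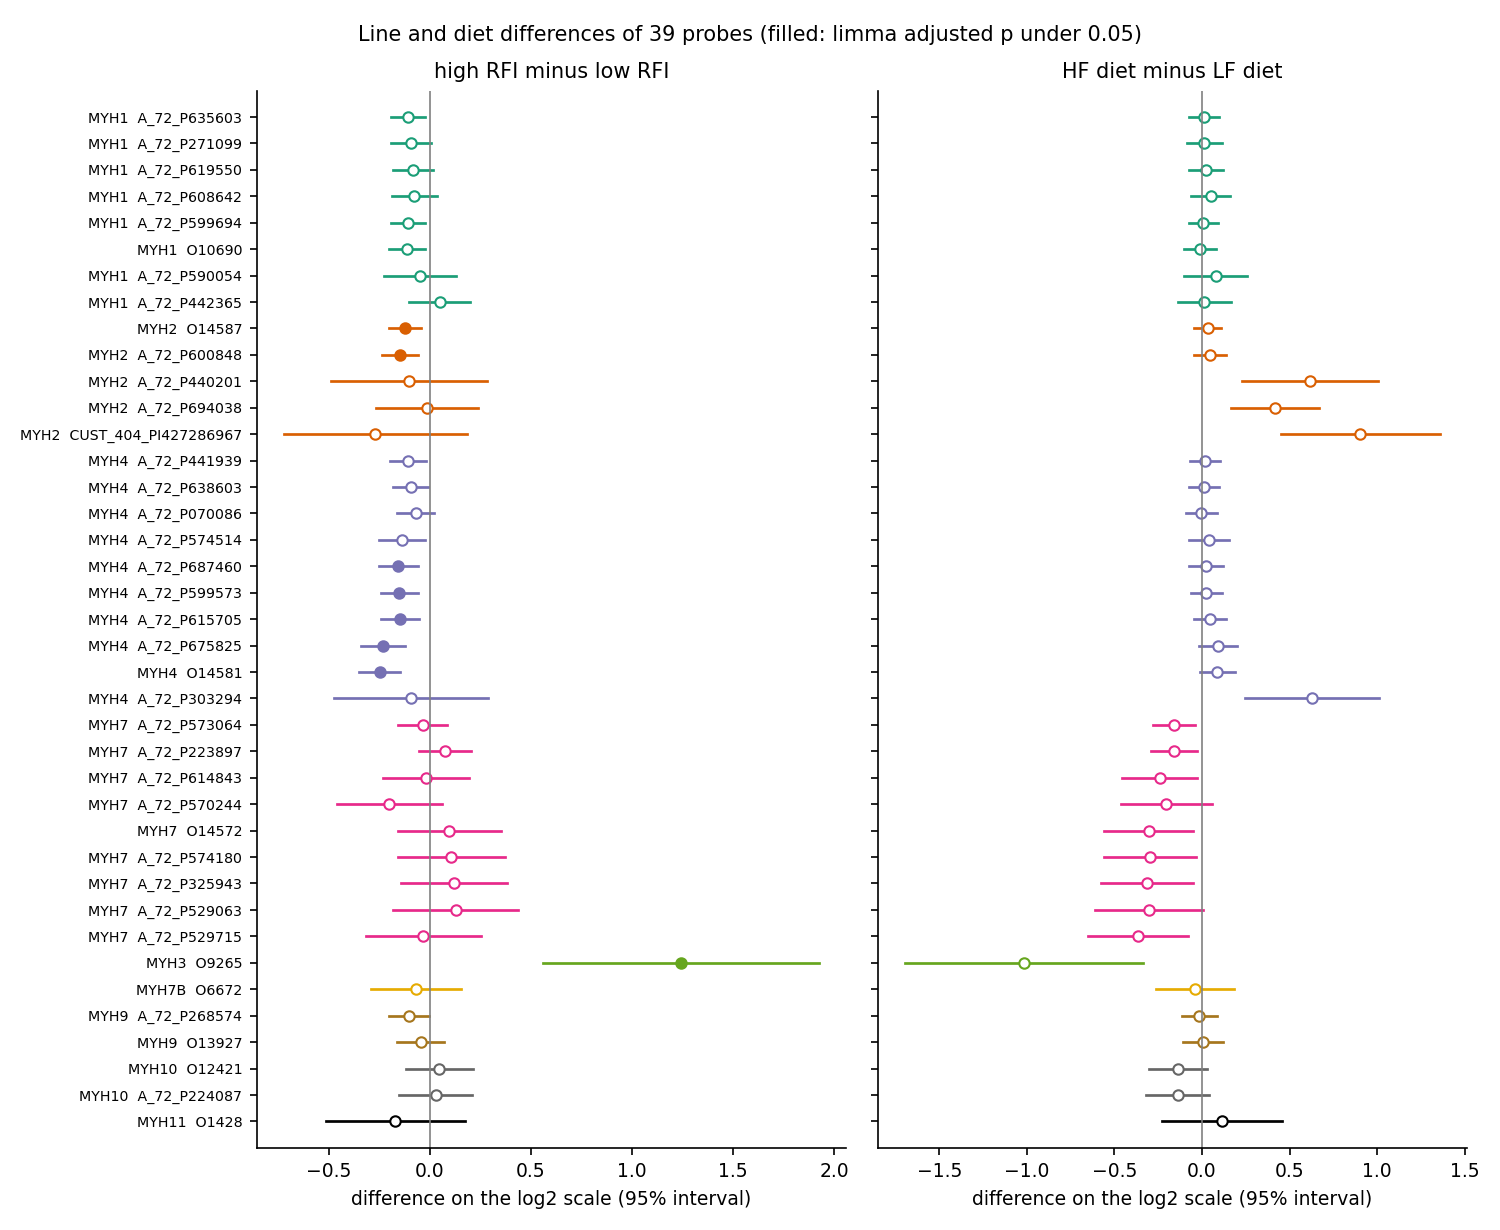
Differences on the log2 scale with 95% intervals (x axis) for each of 39 probes (rows, coloured by gene), high RFI minus low RFI on the left and HF minus LF on the right, with filled points for an adjusted p below 0.05 by limma. On the left, 8 points are filled, MYH3 on the right of 0 and 7 MYH2 and MYH4 probes just left of 0 (the latter not called after quantile normalization), and on the right no point is filled.

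No line by diet interaction passed the test in the family. None of 39 probes was called by limma and none had an unadjusted p below 0.05, and 0 of all 42125 probes were called (1875, or 4.45%, with an unadjusted p below 0.05). The interaction of MYH3 was -0.20 (unadjusted p = 0.768) and that of CUST_404_PI427286967 was 0.17 (unadjusted p = 0.714). Taken by diet, 0 of 39 probes differed between lines on HF (6.39% of all probes) and 1 of 39 on LF (2.47%), namely MYH4 O14581. Its adjusted p was 0.0268 on LF and 0.05004 on HF by limma, where the latter lay just above the threshold. Taken by line, 0 of 39 differed between diets in low-RFI pigs (0.199% of all probes) and 0 in high-RFI pigs (0% of all probes), with 4 and 12 probes at an unadjusted p below 0.05, against 11.6% and 5.47% of all probes.

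The myosins differed far more in how widely pigs of the same group varied. The SD between pigs within groups was 1.21 on the log2 scale for MYH3, at the 99.5th percentile of the 2423 probes of similar brightness, and 0.44 to 0.80 for the 4 variable probes of MYH2 and A_72_P303294. Among probes of like brightness those 4 stood between the 97.1st and the 99.3rd percentile. MYH7 probes had SDs of 0.21 to 0.54, and the brightest, A_72_P573064 (0.21), stood at the 97.1st percentile for its brightness. The remaining MYH1, MYH2 and MYH4 probes had SDs of 0.13 to 0.31, against a median of 0.26 over all tested probes. Among probes of like brightness they stood between the 29.8th percentile (MYH2 O14587) and the 95.9th (MYH1 A_72_P608642), with MYH4 O14581 at the 75.7th.

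**Figure D3:**
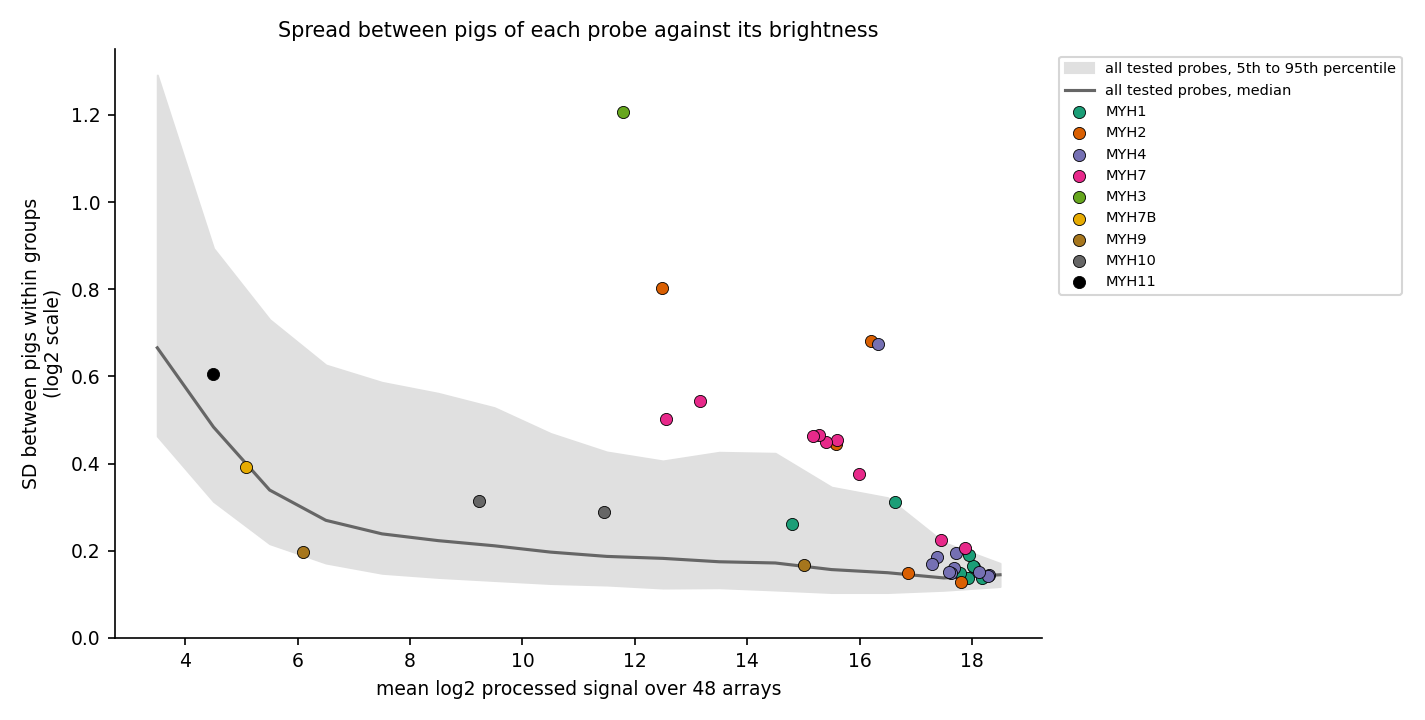
SD between pigs within groups on the log2 scale (y axis) against mean log2 processed signal over 48 arrays (x axis) for the 39 probes, coloured by gene, over the median and the 5th to 95th percentile of all tested probes by brightness. MYH3 stands above the band at 1.21, the 4 variable MYH2 and MYH4-named probes lie at 0.44 to 0.80, and the bright MYH1, MYH4 and MYH2 probes lie near the lower part of the plot.

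Probes of 1 gene did not always follow the same pigs. With group means removed, the 9 MYH7 probes correlated at r = 0.72 to 0.997 with each other over 48 pigs, and the MYH10 pair at 0.97. The 4 variable probes correlated at 0.90 to 0.997 among themselves, but at only 0.02 to 0.38 with the other MYH2 probes. Those other MYH2 probes, O14587 and A_72_P600848, correlated at 0.15 to 0.91 with MYH1 probes and at 0.37 to 0.84 with the remaining MYH4 probes. The variable probes correlated at -0.05 to 0.45 with MYH1 probes, so that the ranges of both sets overlapped there. With the 9 other MYH4 probes, the variable probes, the MYH4-named A_72_P303294 among them, correlated at -0.15 to 0.20. They correlated at -0.41 to -0.14 with MYH7, and the MYH9 pair at 0.02. These are descriptions over probes that share arrays.

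**Figure D4:**
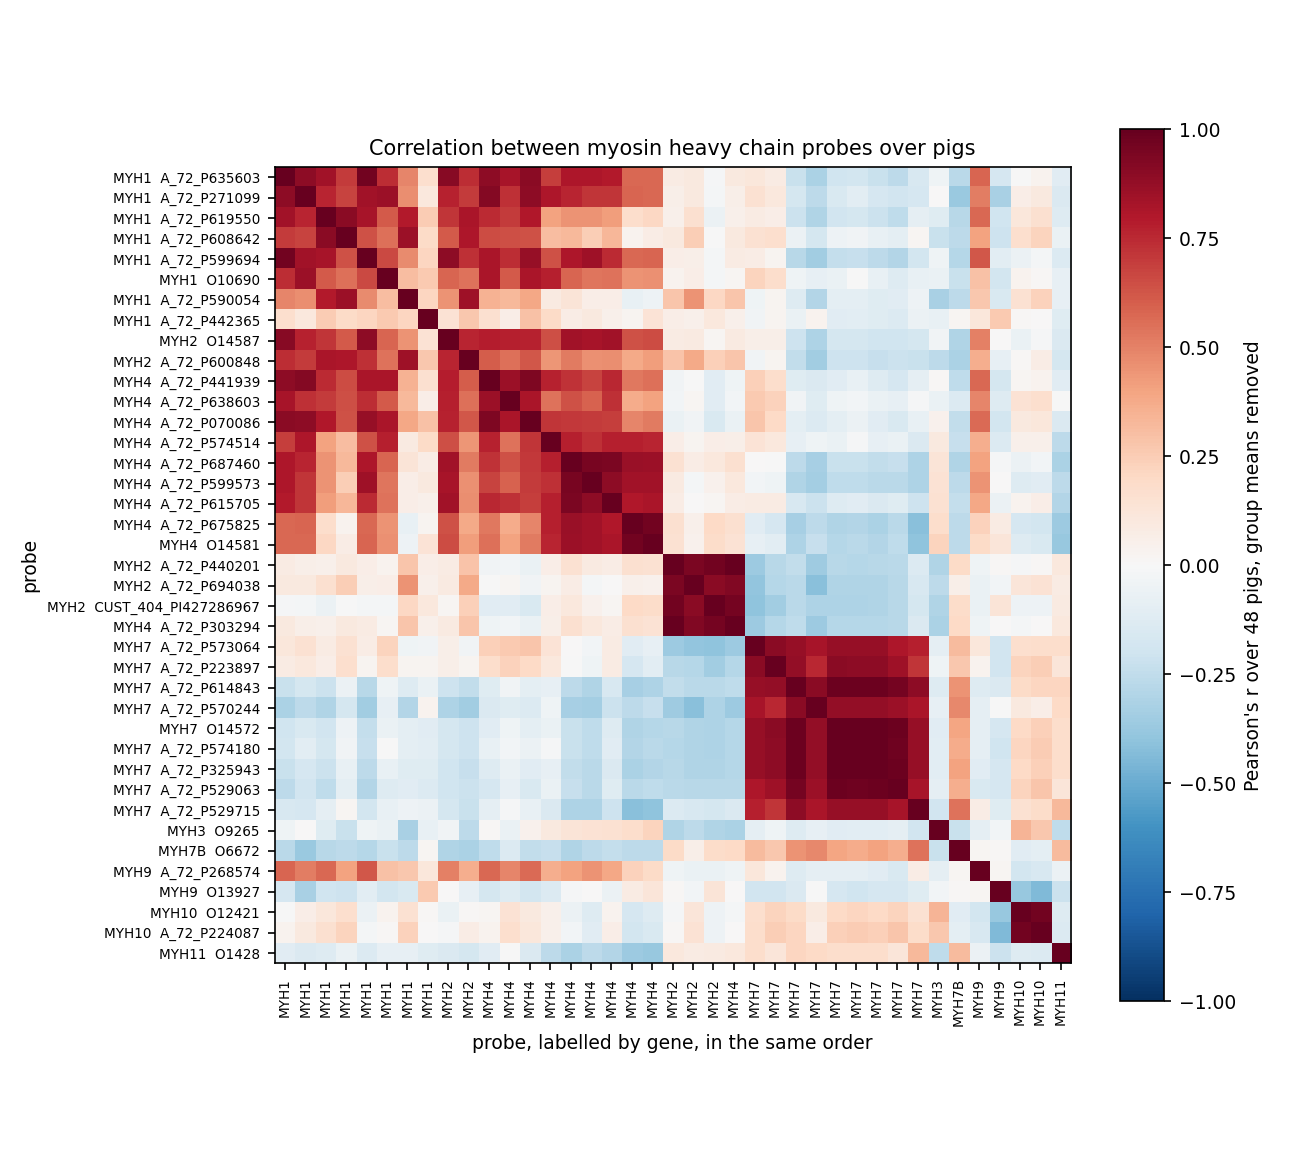
Pearson's r between the 39 probes (both axes, ordered by gene) over 48 pigs with group means removed, on a colour scale. The MYH7 block is uniformly high (0.72 to 0.997), the bright MYH1, MYH2 and MYH4 probes form a second block, and the 4 variable probes form a block of their own (0.90 to 0.997).

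Between genes, averaged over their probes, 6 of 36 pairs were correlated over the 48 pigs at an adjusted p below 0.05 (permutation tests, two-sided, 100000 permutations, Benjamini-Hochberg over 36 pairs). MYH2 and MYH7 were negatively correlated (r = -0.43, adjusted p = 0.0165; rho = -0.47, adjusted p = 0.0073), with r = -0.47 after leaving out the 2 pigs farthest from the median, -0.32 with group means removed, and -0.41 and -0.48 on the respective scan days. MYH2 and MYH3 gave r = -0.46 (adjusted p = 0.0131; rho = -0.42, adjusted p = 0.0178) and -0.35 without the 2 farthest pigs, -0.31 with group means removed, and -0.46 and -0.45 by scan day. Among the slow genes, the MYH7 mean and the MYH7B probe were positively correlated (r = 0.38, adjusted p = 0.0422, and rho = 0.42, adjusted p = 0.0178). It was 0.34 without the 2 farthest pigs, and 0.53 and 0.28 by scan day. The MYH7B probe lay close to background, and the strand that it reports was not tested, so the pair may not describe the MYH7B transcript.

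MYH1 and MYH4 gave r = 0.62 (rho = 0.64) and MYH2 and MYH4 r = 0.63 (rho = 0.57), both with adjusted p-values of 2e-04 by permutation. The MYH4 mean includes A_72_P303294, which overlaps the MYH2 probe A_72_P440201 in sequence. The same target thus stood on both sides of the MYH2 and MYH4 pair, so this test cannot show that those genes vary together. Without the 2 farthest pigs, r was 0.60 for MYH1 and MYH4 and 0.49 for MYH2 and MYH4. By scan day it was 0.55 and 0.66 for the former pair, and 0.64 and 0.60 for the latter. MYH9 and MYH10, the non-muscle myosins, gave r = -0.42 (adjusted p = 0.0165; rho = -0.42, adjusted p = 0.0178), at -0.44 without the 2 farthest pigs, -0.26 and -0.44 by scan day, and -0.60 in the low-RFI line against -0.09 in the high-RFI line, a difference that was not tested.

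When each gene was represented by its brightest probe, 7 of 36 pairs passed. MYH1 and MYH2 then gave r = 0.92 (rho = 0.91), MYH1 and MYH4 0.89 (rho = 0.86) and MYH2 and MYH4 0.81 (rho = 0.74). The brighter MYH9 probe passed with MYH1 (r = 0.61, adjusted p = 9e-05 by permutation), MYH2 (0.55, 0.00036) and MYH4 (0.62, 0.000144). MYH3 and MYH10 gave r = 0.37 (adjusted p = 0.0452 by permutation) and rho = 0.53. The negative and slow pairs did not pass. MYH2 and MYH7 gave 0.04 (adjusted p = 0.847 by permutation), MYH9 and MYH10 -0.21 (adjusted p = 0.329) and MYH7 and MYH7B 0.28 (adjusted p = 0.186). MYH2 and MYH3 gave r = -0.27 (adjusted p = 0.222) and rho = -0.34 (adjusted p = 0.0873), with r = -0.50 without the 2 farthest pigs and -0.04 with group means removed. The variable MYH2 probes by themselves gave r = -0.41 with MYH7 and -0.43 with MYH3. The MYH9 mean joins a pair of probes that correlated at 0.02.

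The probe most like each myosin over the 48 pigs, group means removed, was sought over the 8976 other symbols of the array. It was a filament partner for MYH7, MYH1, MYH3, MYH11 and MYH7B, and not for MYH4, MYH2, MYH9 and MYH10. MYH7 was closest to the slow troponins TNNT1 (r = 0.97), TNNC1 (0.96) and TNNI1 (0.96). MYH1 was closest to the fast light chain MYLPF (0.86), the calcium store protein CASQ1 (0.84) and the light chain MYL1 (0.84). The mean of the MYH4 probes was closest to the glycolytic enzyme LDHA (0.79), tropomyosin TPM1 (0.71) and GPD1 (0.71). It includes A_72_P303294 and correlated at 0.50 with the 4 variable probes, group means removed. MYH3 was closest to TNNT2, the troponin T of heart and developing muscle (0.89), IL18 (0.89) and IGSF1 (0.80), of which TNNT2 was itself 1.05 higher in the high-RFI line (adjusted p = 0.0162 by limma) and IL18 1.31 higher (adjusted p = 0.000187). MYH11 was closest to the smooth muscle actins ACTA2 (0.64) and ACTG2 (0.64). MYH9 was closest to XPNPEP3 (0.69), SH3GLB2 (0.69) and THSD1 (0.67), and MYH10 to PKIA (0.75), HSPA2 (0.73) and PRUNE2 (0.73). The mean of the 5 MYH2 probes was closest to SYCE2 (0.62), which is not a filament partner. That mean followed the 4 variable probes, most of which it holds (r = 0.99, group means removed). The other MYH2 probes, and the MYH4 probes without A_72_P303294, were not compared by themselves. The MYH7B probe, close to background and of untested strand, was closest to the atrial light chain MYL7 (0.63).

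The partner genes of the fibre types were described from fixed lists, by probe. Among 74 probes of 11 fast fibre partners, 30 (40.5%) were called lower in the high-RFI line (9.85% of all tested probes) and 0 higher, with a median difference of -0.11. After quantile normalization 6 of the 74 were called lower (8.25% of all tested probes) and the median was -0.01. The smallest adjusted p-values were those of the light chain MYLPF (-0.29, adjusted p = 9.18e-06 by limma) and of 3 probes of the fast troponin TNNT3 (-0.22 to -0.21). The other called probes belonged to TNNI2, TNNC2, MYL1, MYLPF, TPM1, CASQ1 and the calcium pump ATP2A1, and 10 of the 30 were probes of MYL1. Among 51 probes of 10 slow fibre partners, 4 (7.84%) were called higher and 0 lower, a share close to the 6.57% of all tested probes called higher. They were 3 probes of CASQ2, the slow and cardiac calsequestrin (0.72 to 0.77, adjusted p from 0.00131 to 0.00689 by limma), and 1 of the calcium pump ATP2A2 (0.23, adjusted p = 0.0205). The slow partners had a median line difference of 0.19.

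For diet, neither list held a called probe, against the 0.420% of all tested probes given above. The slow partners had a median of -0.24, with 46 of 51 probes negative and 8 at an unadjusted p below 0.05 (TNNC1, TNNI1, TPM3 and CASQ2), and the fast partners had a median of 0.01. MYL3 and FHL1 of the slow list and ACTN3 of the fast list had no tested probe.

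**Figure D5:**
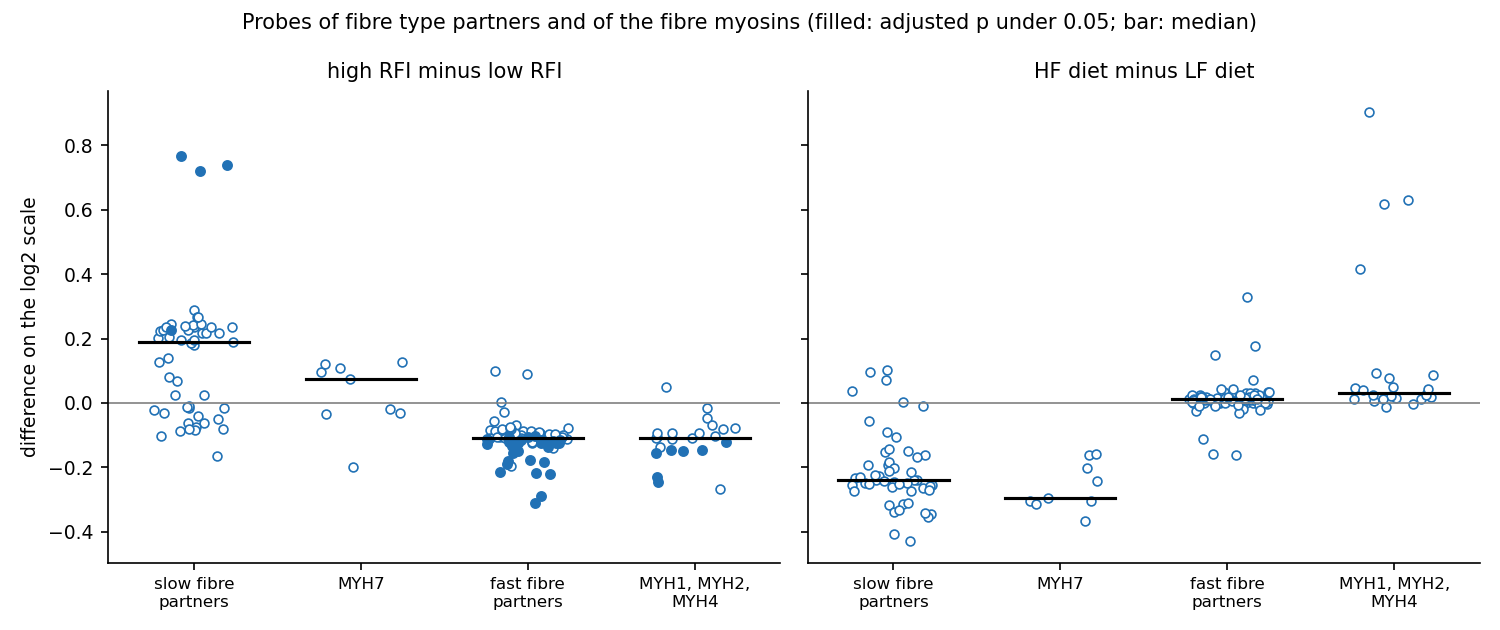
Differences on the log2 scale (y axis) of single probes of the slow fibre partners (51 probes), MYH7 (9), the fast fibre partners (74) and MYH1, MYH2 and MYH4 together (23), for line on the left and diet on the right, filled where the adjusted p by limma is below 0.05, with the median as a bar. The fast partners lie mostly below 0 for line (30 called lower, 6 after quantile normalization), and the slow partners and MYH7 lie mostly below 0 for diet with no call.

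Of the genes that fold and assemble myosin, 7 of 23 probes (30.4%) were called lower in the high-RFI line and 0 higher, with a median of -0.12. Of all tested probes, 9.85% were called lower. After quantile normalization 7 of the 23 were again called lower and 0 higher, against 8.25% of all tested probes lower. The 7 probes called in the main setting included 2 of 3 probes of the chaperone UNC45B (-0.44, adjusted p = 2.44e-05, and -0.26, adjusted p = 0.0028, by limma). They also included the methyltransferase SMYD1 (-0.25) and a probe of the giant filament protein TTN (-0.26, adjusted p = 1.42e-05 by limma). Another TTN probe went the other way, 0.75 higher in the high-RFI line, and was not called. Among the regulators of fibre type, probes of MEF2C (-0.46, adjusted p = 0.0022 by limma), MEF2D (-0.34, adjusted p = 0.0095) and SOX6 (-0.28, adjusted p = 0.0155) were called lower. Of the genes of regeneration and developing fibres, 2 of 20 (10%, near the 6.57% of all tested probes) were higher, the acetylcholine receptor subunit CHRNA1 (0.78, adjusted p = 0.0054) and the myogenic factor MYOD1 (0.39, adjusted p = 0.0219), with a median of 0.12. Of the non-muscle and smooth muscle myosin partners, 3 of 35 (8.57%, also near that share) were higher (the light chains MYL12B, 0.31, and MYL6, 0.19, and the kinase ROCK1, 0.12), with a median of 0.02. For diet, 0 probes of these lists were called. EYA1, HSPB1, MYOM3 and MYMK of these lists had no tested probe.

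The tissue matched its label, with 8 of 8 skeletal fibre markers present. Their level, the mean over their probes, ran from 9.004 to 9.501 in low-RFI pigs and from 8.81 to 9.37 in high-RFI pigs. Of their probes, 12 of 49 (24.5%) were called lower in the high-RFI line, against 9.85% of all tested probes. After quantile normalization 6 were called lower, against 8.25% of all tested probes. Markers of other cells were also measured. Of all tested probes, 6.57% were called higher in the high-RFI line. Fibroblast markers had 4 of 26 probes (15.4%) called higher, all collagen I (level 2.33 to 3.15 against 2.35 to 3.19 in low and high RFI). Adipocyte markers had 8 of 25 (32%), all FABP4 (-1.11 to 1.18 against -0.79 to 1.43). Endothelial markers had 2 of 16 (12.5%) and leukocyte markers 2 of 8 (25%). Smooth muscle markers had 1 of 30 (3.33%, level 2.02 to 2.65 against 1.98 to 2.77). The ranges of these levels overlapped between the lines, none of the markers was called for diet, and their part in the myosin differences was not tested.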

How the data were processed

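RNA was labelled with Cy3 and hybridised to 60K Agilent arrays, 8 per slide on 6 slides, each slide holding 2 pigs of each group, scanned on 2 days (3 slides each by header). Per the file headers, the authors extracted the spots with Feature Extraction 10.7.3.1, and the deposited intensity is its processed signal, corrected for background. The deposited table of log2 values, in which the authors used median signals centred on each array's median (submitters' notes name R 2.10.0), held 38 of the 39 probes and served as an alternative. From the scanner files, outlier spots were removed, spots of a probe averaged, and the 42125 probes kept that cleared background on 12 or more of the 48 arrays (59.2% to 74.2% of probes well above background per array). Log2 signals were centred on each array's mean and fitted on 4 group means with limma 3.58.1 (R 4.3.3), p-values adjusted by Benjamini-Hochberg over all tested probes. Line is high minus low RFI, diet is HF minus LF.

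Values are given for the brightest probe of each gene (the most arrays above background first) and each called probe, for at most 4 called probes of a list and for the 3 most alike genes. Probes and pigs described beyond that were chosen after their values were seen. The members and lists were chosen with earlier results of these data known. Replicate numbers only name pigs. The number of arrays limits the precision, and gene symbols are those of the array design, which may be old. Correlations were tested by permutation in Python 3.11.15 (numpy 2.4.6, scipy 1.17.1), and the fit was tested on simulated data. Alternatives were other scalings, background correction, filters, slide as a block, scan day, and gene averages. The count over the list of fibre type regulators is not reported here.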

Additional observations from a re-analysis of the deposited data

How the results depend on the processing

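The count of probes called for line (8) was 2 after quantile normalization (MYH3 and a MYH7 probe, both higher), 3 without a filter on dim probes, 13 with slide as a block (7 of MYH4, 3 of MYH1, 2 of MYH2 and MYH3), 2 of 9 when the probes of a gene were averaged and 5 of 30 with only the brightest probe of each target site, an alternative chosen after seeing the data. Calls over all probes also changed with the setting. With slide as a block, 12.5% of all probes were called lower and 7.44% higher, against 9.85% and 6.57% in the main setting. After quantile normalization these shares were 8.25% and 6.68%. The count for diet (0) was 1 with 75th percentile scaling, with probes well above background on all 48 arrays, with slide as a block, with scan day as a covariate and in the deposited table, the MYH2 probe CUST_404_PI427286967 each time. Of all probes, 0.465% were called higher on HF with 75th percentile scaling, 0.358% with slide as a block and 0.331% in the deposited table, against 0.176% in the main setting. Within HF, the line count (0) was 1 with 75th percentile scaling, probes well above background on all 48 arrays, outlier spots kept, slide as a block and scan day. Within LF, the count (1) was 0 after quantile normalization, without the filter, with genes averaged and with 1 probe per site, and 2 with slide as a block and in the deposited table. The interaction and the diet counts within each line stayed at 0 under the alternatives run. The line difference turned sign for MYH1 A_72_P635603 after quantile normalization (0.00082) and for MYH7 A_72_P573064 after quantile normalization (0.0694), normexp (0.00709) and gene averaging (0.0271). The diet difference turned sign for MYH7B O6672 after normexp (0.00805) and in the deposited table (0.00951), and for MYH9 A_72_P268574 with 75th percentile scaling (0.00935). Of 372 single-probe values, 342 kept their direction and side of the threshold. The causes were not tested. No paired analysis was possible because the replicate numbers only name the pigs. MYH7B and MYH11 signals lay close to background, which limits what they can show.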
